A study of Mus musculus with 4 samples.

Results

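Retinoic acid is made from vitamin A in successive oxidation steps, binds nuclear receptors (RAR, paired with RXR) that sit on DNA at retinoic acid response elements, and is removed by CYP26 enzymes. Several genes of the pathway are themselves turned on by the signal, and in embryonic stem (ES) cells and embryos the Hox genes, above all those at the 3′ end of each cluster, are textbook targets of it. The 10 genes described here were chosen by name as the core of that pathway and its response: *Aldh1a2* (synthesis), *Dhrs3* (return of retinaldehyde to retinol), *Stra6* (uptake of retinol), *Crabp2* (delivery of retinoic acid to the receptor), *Cyp26a1* and *Cyp26b1* (breakdown), *Rara*, *Rarb* and *Rarg* (receptors) and *Stra8* (a response gene of premeiotic germ cells). They were read by 12 probes, found through the transcript identifier of each probe, out of 55562 probes with a value on every array and 20257 genes that could be named.

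RNA of 4 mouse ES cell lines was hybridised to 1-colour Agilent arrays, 1 array for each line. The lines were parental ES cells (EB3), 2 clones (#1 and #9) that stably expressed FLAG-tagged Nup98-HoxA9, the leukaemia fusion of the Nup98 repeat region with the homeodomain part of HoxA9, and 1 clone that expressed HoxA9-Ct, the HoxA9 part alone. All lines were grown on gelatin with serum and LIF, a cytokine that holds ES cells undifferentiated. The paper describes the Nup98-HoxA9 ES cells as not differentiated, from data it does not show. The transgenes had been inserted with a Tol2 transposon, and each transgenic line was grown from 1 picked colony. Insertion site and clone thus cannot be told apart from the transgene where a group has 1 clone. The parental and HoxA9-Ct groups have no replicate, and the only spread within a group is that between the 2 Nup98-HoxA9 clones. Every line was positive for the ES cell markers: all 10 of them, *Pou5f1*, *Sox2* and *Nanog* included, were well above background on the 4 arrays.

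Before the values, the DNA that retinoic acid receptors read is shown for the pair of genes that carried the fullest form of it. The receptor pair binds 2 copies of a 6-base core in the same orientation, and copies 5 bases apart (DR5) make the classic element. The consensus core AGGTCA was searched together with the variant core AGTTCA, with the variant that reads GGGTCA and with the one that reads GGTTCA, on both strands in RefSeq promoter windows of 300 bases (250 before to 50 after the start, GRCm38.p6). These windows were at hand for 9 of the 10 genes, 18 windows in all. A DR5 was found in *Rarb* and *Cyp26a1*. The lines below give 30 bases on the strand of the gene, 5′ to 3′, with the cores in capitals; in *Cyp26a1* the repeat lies on the opposite strand, so its capitals are the reverse complement of the core.
*Rarb*, chr14:16575506-16575535, minus strand, repeat starting at base -53 from the transcription start: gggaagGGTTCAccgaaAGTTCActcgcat
*Cyp26a1*, chr19:37697770-37697799, plus strand, repeat starting at base -32: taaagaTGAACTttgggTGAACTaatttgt

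Of all 32817 mouse promoter windows of this length, 32 (0.0975%) held a DR5, 0.268% a repeat with 2 bases between the cores (DR2) and 0.222% one with 1 base (DR1). No other window of the 10 genes held any of these repeats. A single core was common: 7 of the 18 windows, from 6 genes, held at least 1, against 43.7% of all windows, and those of DR1, DR2 and DR5 are counted among them. *Stra8* had single cores at -194 and -38. A match is a description of letters, and its absence says nothing of elements outside the window.

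**Figure D1:**
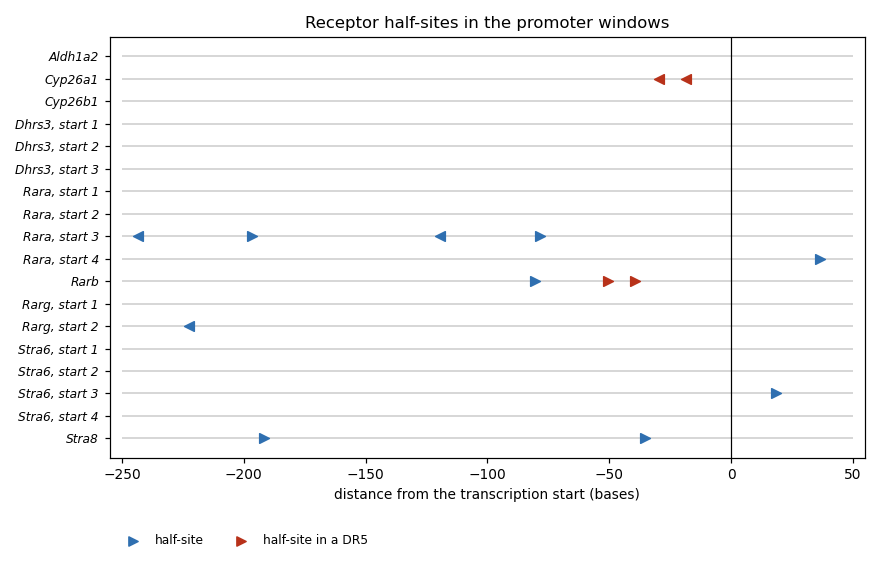
Receptor cores in the 18 promoter windows, plotted by distance from the transcription start in bases; arrowheads give the strand relative to the gene, and red marks the cores of a DR5. Only *Rarb* and *Cyp26a1* hold 2 cores 5 bases apart, both within 60 bases before the start.

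Levels below are log2 of the processed signal minus the 75th percentile of the same array, so 0 is that percentile, and a difference of 1 is a doubling. A probe counted as measured when the scanner software called it well above background; the dimmest probe to pass lay between -4.62 and -4.23 on the 4 arrays. The order of the genes by level is not read, since each probe has its own response.

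Of the 10 genes 6 were higher in Nup98-HoxA9 than in parental ES cells, none was lower, and 4 did not pass the test (limma over all 55562 probes, Benjamini-Hochberg adjusted p under 0.05). They were the retinoic acid synthase gene *Aldh1a2*, the retinaldehyde reductase gene *Dhrs3*, the uptake gene *Stra6*, the breakdown gene *Cyp26a1*, the receptor gene *Rarb* and *Stra8*. At the same threshold 0.781% of all probes, and 1.15% of named genes read at their brightest probe, were higher. The median log2 difference of the 10 genes was 2.19, against -0.10 over all named genes. The call depends on the processing. With quantile normalisation, or with only the probes above background on at least 1 array, limma called 0 of the 10 and 0 of all probes. There 1 and 4 members had an unadjusted p under 0.05. The fitted differences of the 6 genes hardly moved there (*Stra8* 3.25 and 3.18, against 3.18 in the fit reported). With a variance trend and robust estimation, or with normexp background correction, limma called 3. The pair of clones leaves 1 residual degree of freedom, and limma gave every probe the same SD (0.454), while the SD between the clones of the 6 called genes ran from 0.63 (*Dhrs3*) to 1.58 (*Stra6*). With genes at background set to their bound the median difference of the 10 was 1.36.

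**Figure D2:**
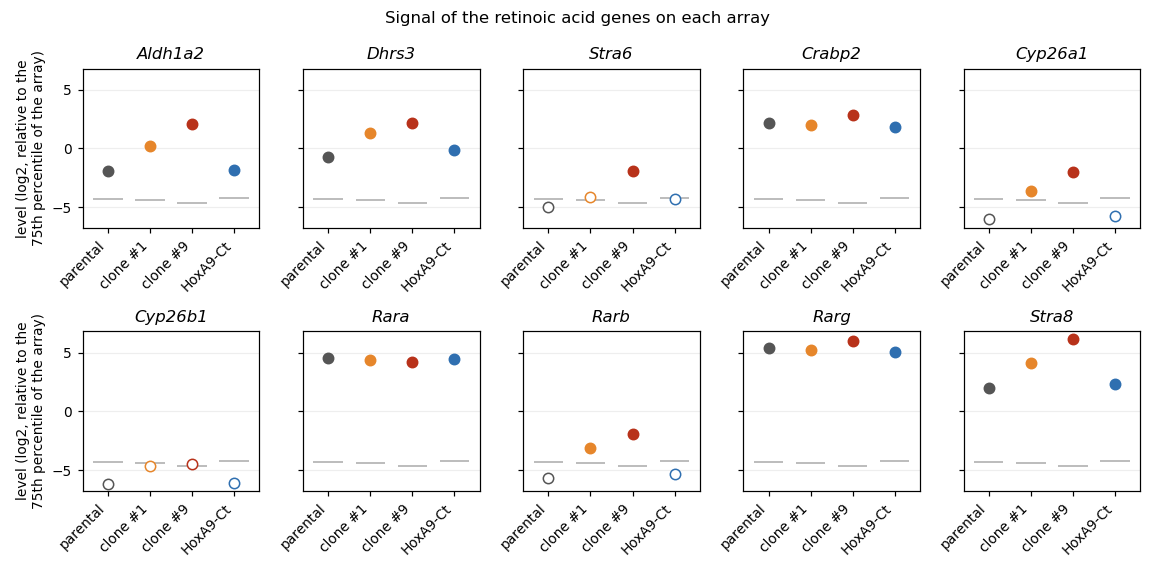
Level of each gene at its brightest probe (log2, relative to the 75th percentile of the array) on the 4 arrays; filled points are well above background, open points are not, and the grey bar is the dimmest probe of that array that passed as above background. *Aldh1a2*, *Dhrs3*, *Cyp26a1*, *Rarb* and *Stra8* are higher in both clones than in parental and HoxA9-Ct ES cells, and *Rara* lies at nearly the same height in all 4 lines.

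On the side of synthesis, *Aldh1a2* (chromosome 9) encodes the enzyme that makes retinoic acid from retinaldehyde. Its level was -1.91 in parental ES cells, 0.20 in clone #1 and 2.05 in clone #9, with HoxA9-Ct ES cells at -1.83, well above background in all 4. The clones stood apart from both other lines, which were 0.08 apart. The clones were on average 8.20-fold higher than parental (log2 difference 3.04, SE 0.56, adjusted p = 1.57e-05), 4.33-fold in clone #1 and 15.5-fold in clone #9. *Dhrs3* (chromosome 4) is known as a reductase that limits retinoic acid. Its level was -0.72 in parental, 1.31 in clone #1 and 2.20 in clone #9, with HoxA9-Ct ES cells at -0.13. The log2 difference between the clones and parental was 2.48 (5.56-fold, SE 0.56, adjusted p = 0.00143).

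For uptake and delivery the picture was mixed. *Stra6* (chromosome 9), the receptor through which cells take up retinol from its serum carrier, was above background only in clone #9. Its level was -4.94 in parental, -4.16 in clone #1 and -1.93 in clone #9, with HoxA9-Ct ES cells at -4.28. Clone #9 was at least 5.08-fold higher than parental, and no bound holds for clone #1, which was at background like parental. For the 2 clones together the fitted log2 difference was 1.90 (adjusted p = 0.0475). Without clone #9 the gene was not well above background anywhere. Its call was lost in 6 of the alternatives, among them the array median (adjusted p = 0.0645), the floor on low signals (0.0639) and the variance trend (0.0553). *Crabp2* (chromosome 3) was 2.18 in parental, 1.98 in clone #1 and 2.83 in clone #9, with HoxA9-Ct ES cells at 1.81. Its ratio to parental had opposite signs in the clones (-0.20 and 0.65), and it was not called (adjusted p = 1).

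Of the breakdown genes, *Cyp26a1* (chromosome 19) is among the most direct response genes of retinoic acid and encodes the enzyme that clears it. It was not well above background in parental (level -6.04) or HoxA9-Ct ES cells (-5.79), and was at -3.59 in clone #1 and -1.99 in clone #9. On the fit it differed by 3.25 (SE 0.56, adjusted p = 2.10e-06), and the mean of the clones was at least 2.80-fold higher than parental, 1.61-fold or more in clone #1 and 4.88-fold or more in clone #9. The DR5 shown above lies in its promoter. *Cyp26b1* (chromosome 6) was well above background in no line, with levels of -6.14, -4.66, -4.50 and -6.08 in parental ES cells, clone #1, clone #9 and the HoxA9-Ct line. No fold is given for it, and it was not called (adjusted p = 0.199).

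Among the receptors, *Rarb* (chromosome 14), the receptor gene that responds to its own ligand, was not well above background in parental (level -5.64) or HoxA9-Ct ES cells (-5.35), and was at -3.15 in clone #1 and -1.90 in clone #9. The clones averaged at least 3.37-fold higher than parental (fitted log2 difference 3.12, SE 0.56, adjusted p = 7.49e-06). A further *Rarb* probe was at background in all lines (adjusted p = 0.586), so the probes of this gene do not agree on detection. *Rara* (chromosome 11) was at 4.51 in parental, 4.34 in clone #1 and 4.20 in clone #9, with HoxA9-Ct ES cells at 4.45, with ratios to parental of -0.17, -0.31 and -0.06. *Rarg* (chromosome 15) was at 5.36 in parental, 5.25 in clone #1 and 5.97 in clone #9, with HoxA9-Ct ES cells at 5.08. Its log2 ratio of 0.62 in clone #9 goes with a higher median of the whole chromosome in that clone: over 637 bright probes of chromosome 15 the median log2 ratio to parental was 0.40, against -0.09 on the other chromosomes. Whether that carries the value for *Rarg* was not tested. Neither *Rara* nor *Rarg* was called.

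The response gene *Stra8* (chromosome 6) is known for its part in the entry of germ cells into meiosis. Its level was 1.97 in parental, 4.10 in clone #1 and 6.19 in clone #9, with HoxA9-Ct ES cells at 2.31. Both clones lay above both other lines, 4.39-fold and 18.6-fold higher than parental. The mean difference was 3.18 (9.04-fold, SE 0.56, adjusted p = 4.18e-06). Of 8 other genes of germ cells and meiosis, 7 were above background in all lines, *Mael*, *Rec8*, *Sycp3* and *Ddx4* included, and *Spo11* in none. Of the 8, 0 were called in either direction. Their log2 ratios to parental ran from -0.28 to 0.55 in clone #1 and from -0.33 to 1.23 in clone #9. In bulk RNA, more cells of a type and more RNA per cell cannot be told apart, for *Stra8* as for every gene that was higher here.

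In HoxA9-Ct ES cells none of the 10 genes passed the test. The comparison is of 1 array with 1 array (SE 0.64), so an uncalled gene is not shown to be unchanged. Against parental ES cells 0 of the 10 genes were called by limma (0 at an unadjusted p under 0.05 as well), with log2 ratios from -0.37 to 0.67, while 0.405% of all probes were called in either direction. Set against HoxA9-Ct ES cells directly, 4 genes were higher in the Nup98-HoxA9 clones: *Aldh1a2* (log2 difference 2.95, 7.74-fold, adjusted p = 3.55e-05), *Cyp26a1* (3.0, at least 2.72-fold, adjusted p = 2.48e-05), *Rarb* (2.82, at least 3.27-fold, adjusted p = 0.000108) and *Stra8* (2.84, 7.14-fold, adjusted p = 9.59e-05). *Dhrs3* missed the threshold narrowly (1.88, adjusted p = 0.0516) and *Stra6* widely (1.23, adjusted p = 0.547). Over all probes 0.673% were higher in this comparison. Quantile normalisation and the filter on dim probes took this count, too, to 0 of the 10. Both comparisons use the same 2 clones.

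**Figure D3:**
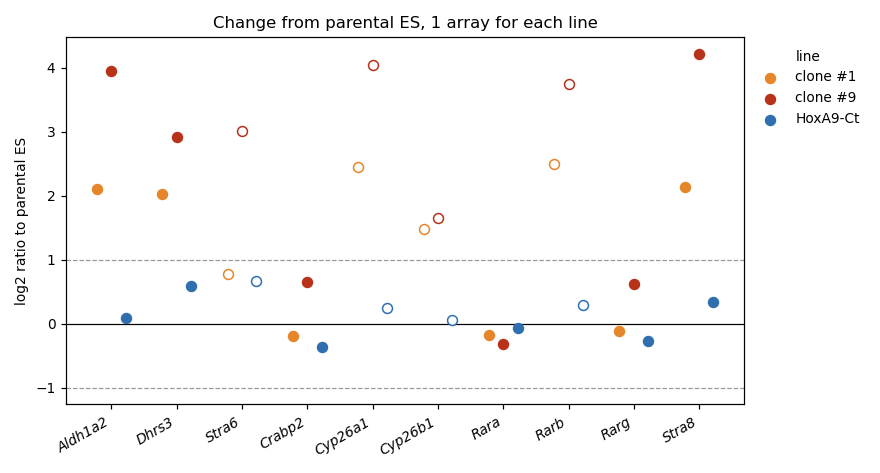
Log2 ratio of each line to parental ES cells at the brightest probe of each gene, 1 array for each line; open points are those where the line or parental was not well above background, and the dashed lines mark a doubling and a halving. For 6 of the 10 genes both clones lie above the upper dashed line, and HoxA9-Ct ES cells lie between the dashed lines for all 10.

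The clones differed in size more than in direction. Of the 10 genes 6 had fitted ratios of at least 2-fold over parental in both clones, against 2.56% of named genes and 1.88% of probes. They were the called genes other than *Stra6*, with *Cyp26b1*, which was at background. *Cyp26a1* and *Rarb* were at background in parental ES cells. Against the bound, *Cyp26a1* was 1.61-fold or more higher in clone #1, and *Rarb* 2.18-fold or more. With low signals set to a floor the count was 4. Clone #9 was the higher of the pair for 9 of the 10, with *Rara* the exception, and by over 2-fold for 5, against 6.61% of named genes. Among the 6 called genes the gap ran from 0.89 (*Dhrs3*) to 2.23 (*Stra6*) on the log2 scale. The clones were single arrays, so this order has no replicate check. Of the 203 other called genes that were not Hox genes, 91 (44.8%) were over 2-fold higher in clone #9 than in clone #1, with a median gap of 0.91.

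Most Hox genes read here were higher in both clones, and their order between the clones differed from that of the retinoic acid genes, as a description with no test. Of 9 genes of the 3′ part of the HoxA and HoxB clusters, 8 were higher in the clones (median fitted log2 difference 4.47, or 2.46 with genes at background set to their bound). All 8 were at background in parental ES cells, so folds are bounds, from at least 2.25-fold (*Hoxb5*) to at least 131-fold (*Hoxa3*). Fitted log2 ratios against that background were 9.12 and 9.28 for *Hoxa3* and 7.05 and 7.02 for *Hoxa5* in clones #1 and #9, and *Hoxa5* was at least 26.2-fold higher. *Hoxb1* was above background in no line. Of 6 genes of the 5′ part 4 were higher, *Hoxa9*, *Hoxa10*, *Hoxa11* and *Hoxb13*, by at least 2.65-fold (*Hoxb13*) to at least 56.4-fold (*Hoxa10*), again over a parental signal at background. In HoxA9-Ct ES cells, which express the HoxA9 part alone, the *Hoxa9* probe was at background (level -5.15, against -4.58 in parental ES cells). Whether this probe also reads the transgene of the clones was not tested. The median gap of clone #9 over clone #1 was -0.29 for the 3′ genes and 1.07 for the 10 retinoic acid genes. Of the 23 Hox genes called over the whole array, 0 were over 2-fold higher in clone #9 and 7 were over 2-fold higher in clone #1. *Hoxb3* was the exception among the 3′ genes in HoxA9-Ct ES cells, where its level exceeded that of parental ES cells by 7.58-fold or more (adjusted p = 2.17e-10). The list was drawn up with these results in view and is no independent evidence.

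**Figure D4:**
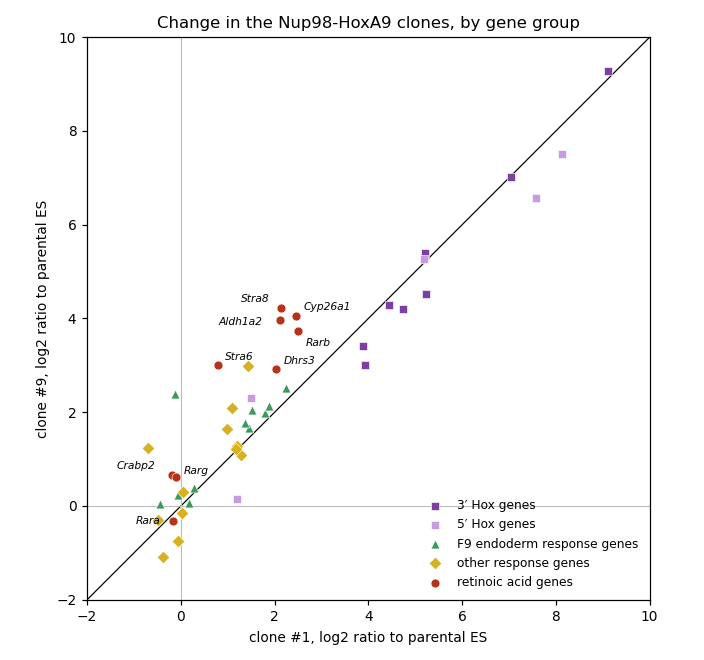
Log2 ratio to parental ES cells in clone #1 (x axis) and clone #9 (y axis) for genes above background in at least 1 clone, by gene group; the diagonal marks equal change. The raised retinoic acid genes lie above the diagonal, and 9 of the 13 Hox genes shown lie below it.

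The wider pathway was read at the same threshold, at which 1.15% of all named genes were higher in the clones than in parental ES cells. Of 27 other genes of retinoid metabolism and transport, 1 was higher: *Aldh1a3*, a sister enzyme of *Aldh1a2*, at background in parental and HoxA9-Ct ES cells and on average at least 1.5-fold higher than parental in the clones (adjusted p = 0.00125; against HoxA9-Ct adjusted p = 0.747). The list's median log2 difference was 0.07, and 10 of its genes, *Lrat* and *Cyp26c1* included, were above background in no line. None of 12 RXR, coactivator and corepressor genes was called (1 had an unadjusted p under 0.05, *Nrip1*, named after its values were seen), with a median of -0.0013. Those with the highest signal, *Ncoa3*, *Rxrb*, *Crebbp* and *Med1*, lay between -0.33 and 0.15 in both clones.

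Response genes outside the 10 came next. Of 18 genes known to respond to retinoic acid outside the Hox clusters, 1 passed the test, *Zfp703* (ratios 1.43 and 2.98 in the clones, 0.14 in HoxA9-Ct ES cells, adjusted p = 0.00852). On fitted ratios 6 (33.3%) were at least 2-fold higher in both clones, genes at background included, against 2.56% of named genes. The median difference was 0.43. *Cdx1*, a regulator of Hox genes, had ratios of 1.1 and 2.10 without passing (adjusted p = 0.174), and *Tgm2* had 1.21 and 1.27 (adjusted p = 0.546); both were named after their values were seen. Of 12 genes that retinoic acid raises in F9 carcinoma cells as they turn into endoderm, *Gata6* (2.23 and 2.53, adjusted p = 0.00275) and *Sox17* (1.89 and 2.14, adjusted p = 0.0257) were higher, with a median of 1.34. In HoxA9-Ct ES cells both genes lay on the other side of parental, but of the 12 only *Sox17* was called. *Gata6* had a log2 ratio of -1.39 without passing. *Sox17* was at background there and at least 2.70-fold higher in parental ES cells (adjusted p = 0.00227). The list's median was -0.93. Against HoxA9-Ct ES cells 6 of the 12 were higher in the clones. These genes also mark primitive endoderm, a cell type that ES cultures can hold, and the sum of their linear levels was 226, 231, 268 and 218 in parental, clone #1, clone #9 and HoxA9-Ct ES cells. *Sparc*, *Lama1*, *Lamc1* and *Lamb1*, matrix genes that were not called, made up 96.7% to 99.4% of that sum, so it does not show *Gata6*, *Gata4*, *Sox17* and *Dab2*, which had mean folds over parental of 5.21, 3.68, 4.04 and 3.44 in the clones (*Gata4* adjusted p = 0.0507, *Dab2* adjusted p = 0.0809). The part of such cells in the values of the retinoic acid genes was not tested.

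The same promoter search gave other genes with a DR5. In all, 31 mouse genes held a DR5 in a promoter window, and 10 of them were read by a named probe. *Rarb* and *Cyp26a1* were higher in the clones, and of the 8 others 0 were called and 0 were 2-fold higher in both clones; 6 of the 8 were above background in no line. The other pair, *Blvrb* and *Cfap45*, had ratios to parental between -0.95 and 0.02 in the clones. This list was made after the values of the members had been seen.

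Markers of other cell types were read on the same arrays. All 10 ES cell marker genes stayed within 2-fold of parental in both clones, and 0 were called. Of 7 neural genes 1 was lower, *Pax6*, at background in both clones and at least 1.94-fold higher in parental ES cells (adjusted p = 6.46e-05), and 0 were higher; of 6 mesoderm genes 0 were called and *T* was above background in no line. Of 7 fibroblast genes 0 were called, and *Col1a2*, at background in parental ES cells, exceeded parental by 3.35-fold or more on average in the clones without passing (adjusted p = 0.0944). Their summed level was 7.65 in parental, 9.33 in clone #1 and 17.4 in clone #9, with HoxA9-Ct ES cells at 10.6, and *Thy1* alone made up 95.7% to 97.5% of it; *Postn*, *Dcn* and *Lum* were above background in no line. The part of such cells in the values of the retinoic acid genes was not tested.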

How the data were processed

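Expression was measured on 1-colour Agilent mouse arrays, 4 arrays on 1 slide with 1 scan date, so no batch could be fitted. The deposited scanner files hold the intensity of each spot, which the authors produced with Agilent Feature Extraction 10.10.1.1 at default settings. The deposited series matrix holds the same intensity times 1 constant per array (3.19 to 3.63). Control spots and outlier spots (143 to 201 of 59305 per array) were left out, 0 spots were saturated, and 49.9% to 53.0% of spots were well above background; the number of arrays limits the precision. Log2 signals were centred on the 75th percentile and averaged per probe. Probes were named by RefSeq transcript (26762 of 55681); a gene was read at its brightest probe.

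limma 3.58.1 (R 4.3.3) was fitted to 3 groups. The estimated prior degrees of freedom were infinite, so every probe shared 1 SD (0.454). P-values rest on this SD, pooled over all probes from the spread between the 2 clones. The spread of a gene's own clones does not enter its p-value or SE, so the SE of 0.56 is the same for every gene. Where a group was at background, a fold is a bound against the higher of the probe's own signal and the lowest signal well above background on each array. Scripts were tested on simulated data with that shared SD. The wider spread between the clones of the 6 called genes (SD 0.63 to 1.58) was not simulated. For Nup98-HoxA9 against parental ES cells, limma made 5 false calls. It recovered 0 of 50 changes of log2 1, 18 of 50 of log2 2 and 46 of 50 of log2 3. A gene that was not called is thus not shown to be unchanged.

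The members and lists were chosen with earlier results of these data known. Named were the 10 members and, from each list, the genes past the threshold or, where none passed, up to 4 with the highest signal above background; any other gene named was chosen after its values were seen, and some list genes are not reported here. Alternatives were normexp, quantile and median scaling, a floor, a filter on dim probes, the series matrix, a variance trend, the mean over probes, and each clone left out. The files have no mean-pixel column, so normexp (offset 50) used median pixels.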

Additional observations from a re-analysis of the deposited data

Results flagged for a closer look

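By limma, 22 of the genes in the lists used here differed between the Nup98-HoxA9 and HoxA9-Ct lines (adjusted p under 0.05 over all probes). What differed was their change from parental ES cells, so such a gene is the same as one called between these lines. Of all 20257 named genes 193 were higher and 116 lower in the clones in this comparison. The lists were drawn up with earlier results of these data known. Among the retinoic acid genes the log2 differences were 2.95 for *Aldh1a2*, 3.0 for *Cyp26a1*, 2.82 for *Rarb* and 2.84 for *Stra8*. Outside them they were 2.07 for *Zfp703*, 2.14 for *Col4a1*, 2.36 for *Col4a2*, 3.77 for *Gata6*, 3.04 for *Gata4*, 4.96 for *Sox17* and 3.83 for *Dab2*, and -2.99 for *Pax6*. For *Gata6*, *Gata4*, *Sox17* and *Dab2* both clones were above parental and HoxA9-Ct ES cells below it. Of these, only *Gata6* and *Sox17* passed in the clones against parental, and only *Sox17* in HoxA9-Ct against parental ES cells. Among the Hox genes they were 4.20 for *Hoxa2*, 9.15 for *Hoxa3*, 5.01 for *Hoxa4*, 6.98 for *Hoxa5*, 4.03 for *Hoxb2*, 5.21 for *Hoxb4*, 3.42 for *Hoxb5*, 5.80 for *Hoxa9*, 7.78 for *Hoxa10* and 7.20 for *Hoxa11*. These are fitted differences. HoxA9-Ct ES cells were at background for *Cyp26a1*, *Rarb*, *Sox17*, *Dab2* and all the Hox genes named here, and the clones for *Pax6*, so in folds only bounds hold: at least 10.9-fold for *Sox17*, 10.6-fold for *Dab2*, 2.18-fold for *Hoxb5*, 4.44-fold for *Hoxa2* and 127-fold for *Hoxa3*, and *Pax6* at least 2.10-fold higher in HoxA9-Ct ES cells. HoxA9-Ct and parental ES cells had 1 array each.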

How the results depend on the processing

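The number of retinoic acid genes called higher in Nup98-HoxA9 than in parental ES cells was 6, and became 3 with normexp background correction, 3 with a variance trend and robust estimation, 0 with quantile normalisation and 0 with only probes above background on at least 1 array. Against HoxA9-Ct ES cells the count of 4 became 0 with quantile normalisation and 0 with that filter. In these last settings limma called 0 of all probes, with 5069 and 2224 at an unadjusted p under 0.05, so they leave no gene called. The fitted differences of the 6 called genes hardly moved there (*Aldh1a2* 3.04 in both, as in the fit reported), so what changed was the p-values. In both settings the adjusted p of the 6 followed the order of the SD between their clones in the fit reported. It ran from 0.559 (*Dhrs3*) to 0.908 (*Stra6*) with quantile normalisation, and from 0.571 to 0.813 for the same genes with the filter. Why the p-values rose was not tested. With normexp the genes 2-fold higher in both clones fell from 6 to 3 and the median log2 difference from 2.19 to 0.47; *Aldh1a2*, *Dhrs3* and *Stra8* kept their calls, and the genes at background in parental ES cells, *Cyp26a1* (0.51), *Rarb* (0.76) and *Stra6* (0.43), lost theirs. With the variance trend *Stra8* (adjusted p = 0.904), *Aldh1a2* (adjusted p = 0.174) and *Stra6* (adjusted p = 0.0553) lost theirs. The array median and the floor on low signals each left 5 called, without *Stra6*; the floor also took the 2-fold count to 4 and the median to 1.36. The sign of the 6 called genes changed under none of these settings. *Cyp26b1*, at background everywhere, changed sign with the floor (-0.185 against parental, -0.227 against HoxA9-Ct ES cells) and, in HoxA9-Ct against parental ES cells, with quantile normalisation (-0.0127) and the array median (-0.00238). Without a clone no residual degree of freedom is left and no call can be made; the median then ranged from 1.75 to 2.97 and the 2-fold count from 6 to 7. The median of all probes was -0.18 in the fit reported, -0.01 with quantile normalisation and -0.04 with normexp. No paired analysis was possible, since the labels match no array of a line with an array of another line.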
